A study of Mus musculus with 56 samples.

Results

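Elongating RNA polymerase II was mapped in mouse bone marrow-derived macrophages (BMDMs) in a 1 hr IL-4 experiment, by ChIP-seq with an antibody to RNAPII-pS2, the polymerase phosphorylated at serine 2 of its C-terminal repeats. The samples were chosen by antibody and experiment and are 4 of the 56 of the series. Of the 4, 2 replicates are labelled ctrl and 2 are labelled 1hIL4, treated with IL-4 at 20 ng per ml for 1 hr. All cells came from wild-type C57BL/6 mice aged 8 to 12 weeks, whose bone marrow was differentiated with L929 cell supernatant, and chromatin was fixed with DSG and formaldehyde. BMDMs are a model of macrophages in culture and lack the other cells of a tissue. Nothing used here ties a replicate to 1 animal, so p-values measure spread between libraries. For RNAPII-pS2 that spread was taken over all 12 libraries of the series with this antibody, 8 of them from a second experiment. Cells of that second experiment had IL-4 for 24 hr, bacterial lipopolysaccharide (LPS) for 1 hr, both in turn, or neither.

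The deposited peak lists carry a second record of treatment that runs against the sample labels. Each peak has a name, and in both lists labelled ctrl the names say IL4, while in both lists labelled 1hIL4 they say vehicle. In the whole series the names gave the same treatment as the label in 48 lists, the opposite in these 4, and no treatment in 4 H3K27Ac lists. Every signed value below is therefore given by the sample label, as 1hIL4 minus ctrl, and its sign turns when the peak names are read instead. "Lower by label" thus means higher in the libraries whose peaks are named IL4.

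IL-4 binds its receptor on macrophages and activates the transcription factor STAT6, which turns on genes of alternative polarization and turns off others. After initiation, when serine 5 of the repeats is phosphorylated (RNAPII-pS5), the kinase P-TEFb phosphorylates serine 2 as the polymerase enters productive elongation. RNAPII-pS2 is found along gene bodies and builds up near and beyond the 3′ ends of genes, and it can also mark transcribed enhancers.

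The lists labelled ctrl held 16689 and 20677 peaks, and those labelled 1hIL4 held 16479 and 19492. The score of a peak is its −log10 p or q value from the peak caller, so it measures evidence over background and not a count of reads. Median scores were between 7.02 and 7.51, and the number of reads behind a list was not given in the files used here. Over 5540 host genes with a peak in all 4 libraries, log2 scores correlated at 0.809 between the ctrl-labelled and at 0.810 between the 1hIL4-labelled replicates, and at 0.712 to 0.750 between labels. Peaks were present at 8 of 10 macrophage markers, among them Csf1r, the receptor for the macrophage growth factor, with scores of 132 and 117 in the ctrl-labelled and 126 and 123 in the 1hIL4-labelled libraries. No library had a peak in Spi1 or Adgre1. Of 24 markers of other cell types 4 had a peak in any library, and Cd3e, Mpo and Alb, among others, had none.

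Of 8569 host genes tested, 884 (10.3%) passed an adjusted p of at most 0.1. The value of a gene is the sum of the scores of all peaks inside it, and the test was limma with Benjamini-Hochberg adjustment over all genes. By the label 452 genes (5.27%) were higher and 432 (5.04%) were lower. A peak in all 4 libraries was held by 175 of the higher genes, with a median log2 change of 1.36, and by 158 of the lower genes, with a median of −1.50. In 351 called genes no library of the lower group had a peak. A fitted change for these depends on the score put in place of a missing peak, so scores are given instead of the change. Both empty libraries take the same score before centring, so the adjusted p of such a gene depends on it too. With a floor 4 times as high 212 genes were called higher and 226 lower. Fitted to only the 4 libraries compared, the test called 98 genes higher and 110 lower.

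**Figure D1:**
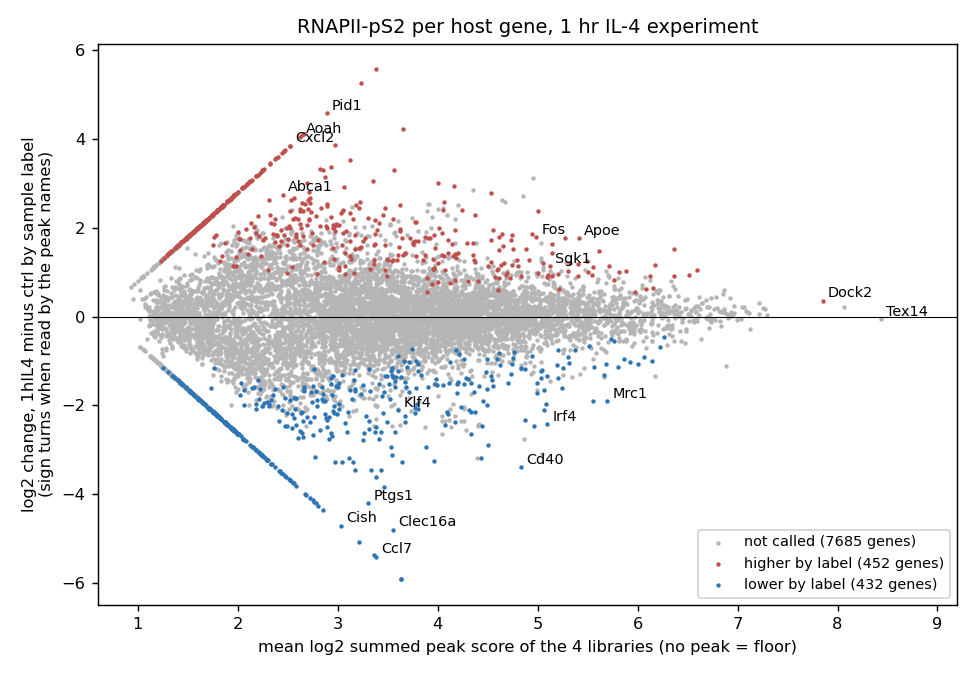
Log2 change of the summed RNAPII-pS2 score, 1hIL4 minus ctrl by sample label, against the mean log2 score of the 4 libraries, 1 point per host gene. The 452 genes higher by label are red and the 432 lower by label are blue; points on the 2 straight edges are genes with no peak in either library of 1 group.

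Some of these calls rest on how a peak was tied to a gene. Where 2 genes share an end or start, the same stretch was annotated to 1 gene in some libraries and to its neighbour in others. When each merged region was instead given 1 host gene, 896 of 8314 genes (10.8%) were called, 5.51% higher and 5.27% lower, and 682 of the original 884 (77.1%) were called in the same direction. Tmem55b, with scores of 75.5 and 80.8 in the 1hIL4-labelled libraries and no peak in the others, and its neighbour Apex1, with 58.0 and 66.9 in the ctrl-labelled libraries only, are the same region. That region scored 58.0 and 66.9 against 75.5 and 80.8 and did not pass (adjusted p = 0.444). The region at the end of the ribosomal protein gene Rpl3 likewise scored 104 and 119 under ctrl and 98.6 and 100 under 1hIL4 (adjusted p = 0.763), although all of its score was given to Rpl3 in the ctrl-labelled libraries alone. Nat10, Ggn, Tmem179b, Tead3 and Rpl35, also among the genes of largest change, lost the call or could not be tested with 1 host gene per region. Pim1, a kinase gene induced by STAT factors, kept its call with a far smaller change, and its region scored 104 and 112 under ctrl and 63.7 and 76.0 under 1hIL4 (log2 change −0.62 by the label, adjusted p = 0.0547).

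Most tested targets of IL-4 and STAT6 were lower by label and so higher where the peak names say IL4. Of 36 genes on the list 30 had a peak in any of the 4 libraries and 27 were tested, of which 18 (66.7%) were called lower and 0 higher, where 5.04% of all genes tested were called lower. The median log2 change of the list was −1.91 by the label and 1.91 by the names, and over all genes tested it was −0.00038. With 1 host gene per region 16 of the 18 kept the call, and Itgax (adjusted p = 0.325) and Hbegf (not tested) did not. Over the 17 alternative settings between 8 and 19 members were called lower, and at most 1 was called higher. The list median by the label ran from −2.48 to −0.89 over these settings. The value of −0.89 came with a floor 4 times as high for a missing peak. Without ctrl replicate 1 the lower members were 10 of 19 tested, and without ctrl replicate 2 they were 10 of 18.

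Feedback inhibitors of cytokine signalling were among the called genes and regions. Cish, which encodes a SOCS family inhibitor of JAK-STAT signalling, scored 39.2 and 59.5 in the ctrl-labelled libraries and had no peak in either 1hIL4-labelled library (adjusted p = 0.000421). Socs3, another member of that family, scored 11.9 and 15.8 against no peak (adjusted p = 0.0006). At Socs1 the signal lay in a stretch annotated as intergenic (mm10, chr16:10780524-10784248), which scored 61.4 and 51.2 against 4.28 and no peak (adjusted p = 0.000146). All 3 were called from these same scores, so the lack of overlap between the groups is no further support.

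Further called members of the list encode a chemokine, an enzyme, a receptor, a secreted protein and a transporter, and 9 of the 27 tested members were not called. Ccl24, an eosinophil chemokine gene, scored 28.3 and 37.6 in the ctrl-labelled libraries against 4.5 and no peak (adjusted p = 0.00117). Ptgs1, which encodes cyclooxygenase-1, scored 35.4 and 60.2 against no peak and 3.23 (adjusted p = 0.000313). The mannose receptor gene Mrc1 had 107 and 99.6 against 17.6 and 38.5 (log2 change −1.91 ± 0.335 (SE) by the label, adjusted p = 0.00379). Retnla, the gene of the secreted protein RELM-alpha, scored 10.2 and 11.4 against no peak (adjusted p = 0.00358), and the arginine transporter gene Slc7a2 scored 11.2 and 13.9 against no peak (adjusted p = 0.00684). Both ctrl-labelled libraries lay above both 1hIL4-labelled libraries in each of these genes, which is no further support because the genes were called from the same scores.

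Of the transcription and chromatin regulators and receptor on the same list, Irf4, Kdm6b, Klf4, Pparg and Il4ra were called lower by label, and Egr2 and Stat6 were not called. Irf4, a factor needed for alternative polarization, scored 71.7 and 91.9 against 14.6 and 14.1 (log2 change −2.42 ± 0.335 (SE) by the label and 2.42 by the names, adjusted p = 0.00155). Kdm6b, a histone H3K27 demethylase gene, had 27.7 and 32.2 against 4.17 and 9.48 (−2.17 ± 0.357, adjusted p = 0.0025). For Klf4 the scores were 21.9 and 30.9 against 5.79 and 5.63 (−2.11 ± 0.568, adjusted p = 0.0501), and for the nuclear receptor gene Pparg they were 11.8 and 13.5 against 2.82 and 7.44 (−1.39 ± 0.332, adjusted p = 0.0231). Il4ra, the receptor chain for IL-4 itself, went from 48.9 and 69.8 to 26.0 and 28.0 (−1.04 ± 0.246, adjusted p = 0.0218). Egr2, at 42.5 and 52.2 against 15.65 and 26.99, did not pass (−1.12 ± 0.395, adjusted p = 0.129), and Stat6 itself had 8.78 and 61.7 against 20.9 and 89.5, with groups that overlap (0.97 ± 0.686, adjusted p = 0.516).

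**Figure D2:**
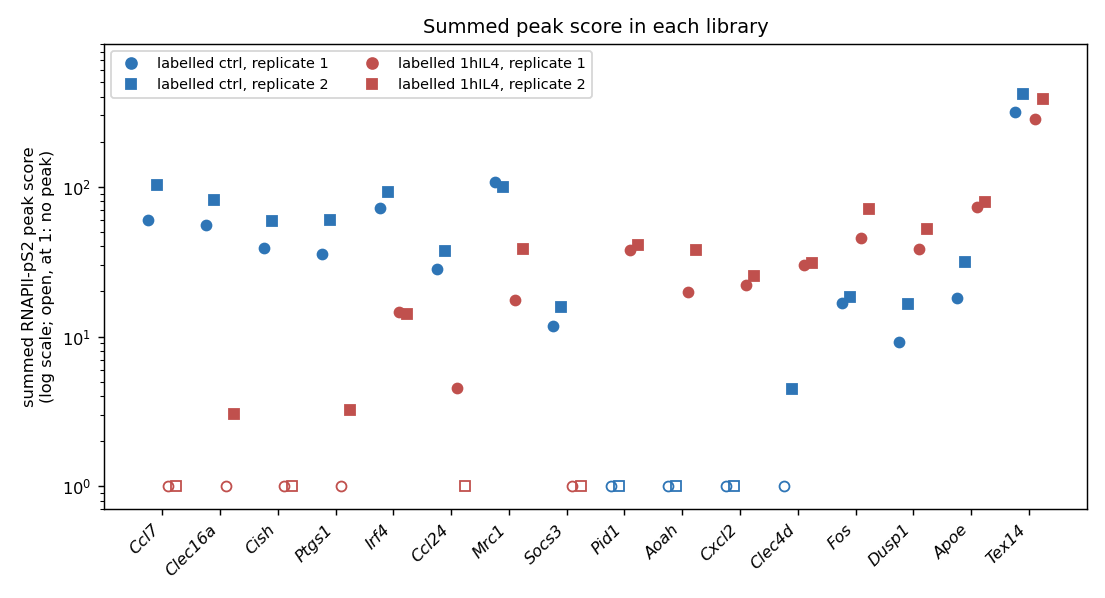
Summed RNAPII-pS2 peak score of 16 genes in each of the 4 libraries on a log scale, with open symbols at 1 for a library without a peak. From Ccl7 to Socs3 both blue ctrl-labelled points lie above both red points, from Pid1 to Apoe the order is turned, and at Tex14 the groups overlap. All genes but Tex14 were called from these scores.

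Other genes of large change lower by label included chemokine, receptor and transporter genes. Ccl7, a monocyte chemokine gene, scored 59.7 and 102 in the ctrl-labelled libraries and had no peak in the 1hIL4-labelled libraries (adjusted p = 4.65e-06). Its neighbour Ccl2 scored 47.1 and 64.2 against 15.5 and 22.3 (−1.49 ± 0.256 by the label, adjusted p = 0.00335). Clec16a, a gene of 199.5 kb next to Socs1, scored 55.5 and 81.6 against no peak and 3.02 (adjusted p = 2.46e-06), and Slc6a20a, an amino acid transporter gene, had 34.3 and 41.4 against no peak (adjusted p = 0.00117). The costimulatory receptor gene Cd40 scored 81.6 and 111 against 8.03 and 9.18, a log2 change of −3.39 ± 0.377 (SE) by the label (adjusted p = 0.00016) that was −1.71 with 1 host gene per region. The integrin gene Itgb3 (17.04 and 12.4), the focal adhesion gene Tes (15.9 and 23.6), the sulfotransferase gene Ust (18.9 and 13.9) and St7 (9.32 and 12.6) had peaks in the ctrl-labelled libraries alone. All 4 of these were called lower.

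Genes higher by label were lower where the names say IL4. Pid1 had scores of 38.1 and 40.8 in the 1hIL4-labelled libraries and no peak in the ctrl-labelled libraries (adjusted p = 3.99e-06), over a gene of 327.9 kb. Of 5 intronic regions of Pid1 that were tested, which hold only part of these scores, 1 passed by itself (adjusted p = 0.0531). Aoah, an enzyme that inactivates bacterial lipopolysaccharide, scored 19.8 and 38.1 against no peak (adjusted p = 2.82e-05). Cxcl2, a neutrophil chemokine gene, scored 22.2 and 25.4 against no peak (adjusted p = 7.65e-05), and Lhfpl2 scored 18.9 and 25.1 against no peak (adjusted p = 6.43e-06). Leprel2 scored 50.3 and 62.4 against no peak and 5.77, Lrrc40 scored 22.5 and 41.8 against no peak and 2.88, and Ptplad2 scored 19.4 and 28.8 against no peak. With 1 host gene per region all 7 stayed higher by label.

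Inflammatory genes were called in both directions. Of 45 genes on the inflammatory and Toll-like receptor list 33 were tested, and 6 (18.2%) were higher and 3 (9.09%) lower by label, where 5.27% and 5.04% of all genes were. The median log2 change was 0.29. Besides Cxcl2, the C-type lectin receptor gene Clec4d was higher, with 30.0 and 31.2 against no peak and 4.45 (adjusted p = 0.000106), and so was the cytokine gene Tnf, with 73.0 and 67.8 against 38.3 and 46.1 (0.82 ± 0.204, adjusted p = 0.0275). Cxcl10, Cxcr4 and Nfkbiz were the other higher members. The lower members were Ccl2, Rel, which encodes an NF-kappaB subunit, and Tnfaip3, an inhibitor of NF-kappaB signalling, which scored 4.92 and 13.9 in the ctrl-labelled libraries and had no peak in the others (adjusted p = 0.017). Over the alternative settings 2 to 10 members were higher and 1 to 5 lower.

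Immediate-early genes respond within minutes to growth and stress signals. Of 25 tested 4 (16%) were higher and 1 (4%) was lower by label, beside 5.27% and 5.04% of all genes. The AP-1 subunit gene Fos scored 45.6 and 71.2 in the 1hIL4-labelled libraries against 16.9 and 18.2 (1.78 ± 0.271 by the label and −1.78 by the names, adjusted p = 0.00158). Dusp1, a phosphatase gene that limits MAP kinase signalling, scored 38.6 and 52.0 against 9.2 and 16.4 (1.95 ± 0.399, adjusted p = 0.0101), and the kinase gene Sgk1 scored 46.8 and 53.9 against 20.9 and 28.0 (1.13 ± 0.155, adjusted p = 0.000817). Btg2 was the fourth (0.94 ± 0.272, adjusted p = 0.0586). Atf3 was the lower member, with 13.6 and 15.5 in the ctrl-labelled libraries against no peak and 7.96.

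Among 18 tested genes of lipid and cholesterol handling, 2 (11.1%) were higher by label and 0 lower, beside 5.27% and 5.04% of all genes. They were Abca1, the cholesterol efflux pump, with 8.92 and 23.9 against 3.02 and no peak (adjusted p = 0.00152), and Apoe, an apolipoprotein gene, with 73.9 and 78.8 against 18.1 and 31.3 (1.76 ± 0.416, adjusted p = 0.0245). Of 19 tested macrophage identity genes 3 (15.8%) were higher and 1 (5.26%) lower, beside the same shares of all genes. The lysosomal protease gene Ctsd (1.26 ± 0.335, adjusted p = 0.0422) and the lysozyme gene Lyz1 (1.12 ± 0.273, adjusted p = 0.026) were higher, whereas Ctsb, called with 1.85 ± 0.322, was at 0.27 and not called with 1 host gene per region (adjusted p = 0.802).

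The shares over all genes, 5.27% higher and 5.04% lower, stand as the background for the short lists that follow. Of 22 tested genes of P-TEFb and its partners 0 were called in either direction, and between 0 and 2 were called in a direction over the alternative settings. Of 16 tested genes of cleavage, polyadenylation and termination Cpsf4 alone (6.25%) was called, higher by label with 5.89 and 6.16 against no peak (adjusted p = 0.0897), and with 1 host gene per region it was not (adjusted p = 0.624). Of 17 interferon response genes 3 were lower and 0 higher, among them Ifit2, with 13.1 and 15.8 against no peak and 3.45 (adjusted p = 0.00183), which could not be tested with 1 host gene per region. Of 14 genes of TGF-beta signalling and corepressors 1 was lower and 1 higher, the higher being the signal transducer gene Smad3 (0.87 ± 0.26, adjusted p = 0.0643). Of 15 genes of translation and ribosome biogenesis 2 were lower, Rpl3, for which see above, and the nucleolar protein gene Nop56, with 45.8 and 74.6 against 24.0 and 25.9 (−1.15 ± 0.254, adjusted p = 0.0151). Of the 3 tested markers of other cell types Pecam1 was lower (−1.25 ± 0.316, adjusted p = 0.0296); it is also expressed by macrophages.

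Gene clusters that the study had drawn from its RNA-seq of IL-4-treated BMDMs, not from these libraries, were compared with the same calls. Clusters A to D hold genes that IL-4 induced in RNA and cluster E those that it repressed. In cluster A 15 of 21 tested genes (71.4%) were lower by label and 0 higher, in cluster B 47 of 98 (48.0%) were lower and 4 higher, and in cluster C 68 of 216 (31.5%) were lower and 3 higher. Cluster D, at 22 lower and 19 higher of 281 tested, was near the background of 5.04% and 5.27%. In cluster E the order was turned, with 104 of 431 (24.1%) higher by label and 7 lower. The median log2 change by the label went from −2.16 in cluster A through −1.29 in B, −0.77 in C and −0.01 in D to 0.61 in E. These sizes depend on the score put in place of a missing peak. With a floor 4 times as high the medians were −0.65, −0.56, −0.52, 0.05 and 0.36, so A, B and C lay close together. The counts moved with the libraries used. With only the 4 libraries in the fit 4 genes of cluster A, 15 of B and 26 of C were lower and 30 of E were higher. Without ctrl replicate 1 the lower genes were 5 of 9 tested in A, 13 of 76 in B and 34 of 187 in C, and without ctrl replicate 2 they were 5 of 7, 22 of 73 and 44 of 181. In cluster E 57 of 375 were higher without 1hIL4 replicate 1 and 59 of 367 without 1hIL4 replicate 2. By the peak names the medians are 2.16, 1.29, 0.77, 0.01 and −0.61.

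**Figure D3:**
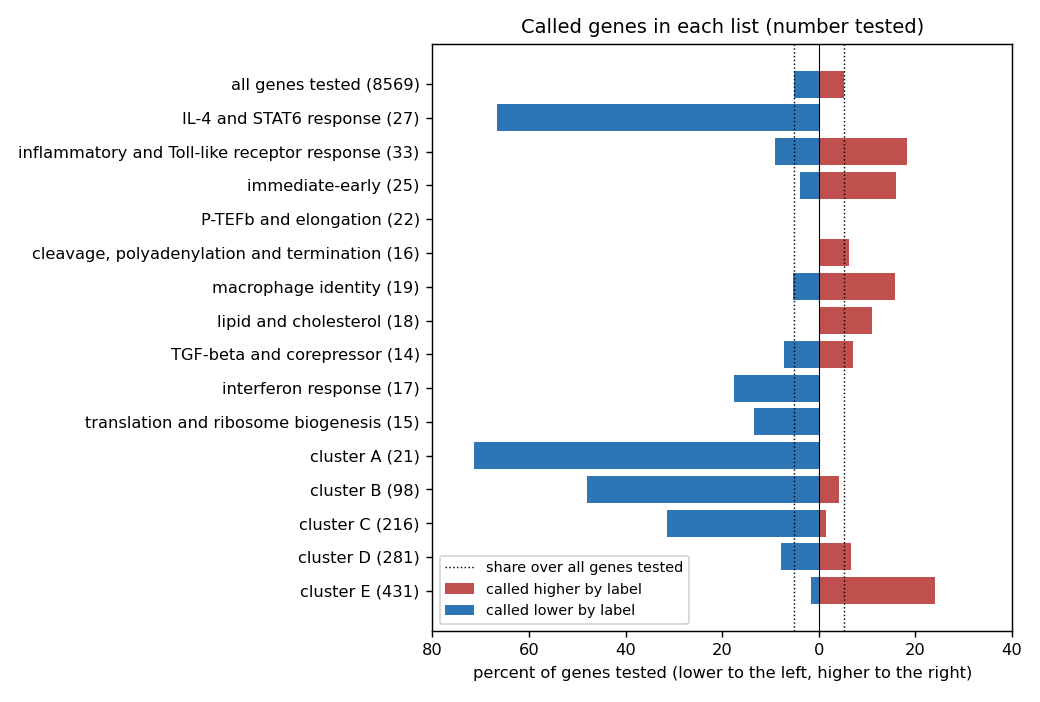
Share of tested genes called lower by label (blue, to the left) and higher by label (red, to the right) in each gene list and RNA cluster with at least 10 genes tested; dotted lines mark the shares over all genes. The IL-4 list and clusters A to C extend to the left, cluster E to the right.

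Peaks of the 4 libraries merged into 26494 regions, of which 18314 had a peak in at least 2 libraries and 2799 (15.3%) were called. By the label 1311 regions (7.16%) were higher and 1488 (8.12%) lower. A peak in both libraries of the higher group and in neither of the other was seen in 704 of the higher and 959 of the lower regions. Over all 18314 regions tested, 1148 had a peak in both 1hIL4-labelled libraries alone and 1563 in both ctrl-labelled libraries alone. The regions were called from these same scores, so this lack of overlap is no further support. Calls were densest in intergenic regions more than 10 kb from the end of any upstream protein-coding gene, where 418 of 3094 (13.5%) were higher and 479 (15.5%) lower. Introns followed with 7.48% higher and 9.69% lower of 5241. At promoters 5.39% were higher and 3.58% lower of 3044, and at TTS regions, which surround the annotated gene end, 3.91% were higher and 6.51% lower of 2303.

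**Figure D4:**
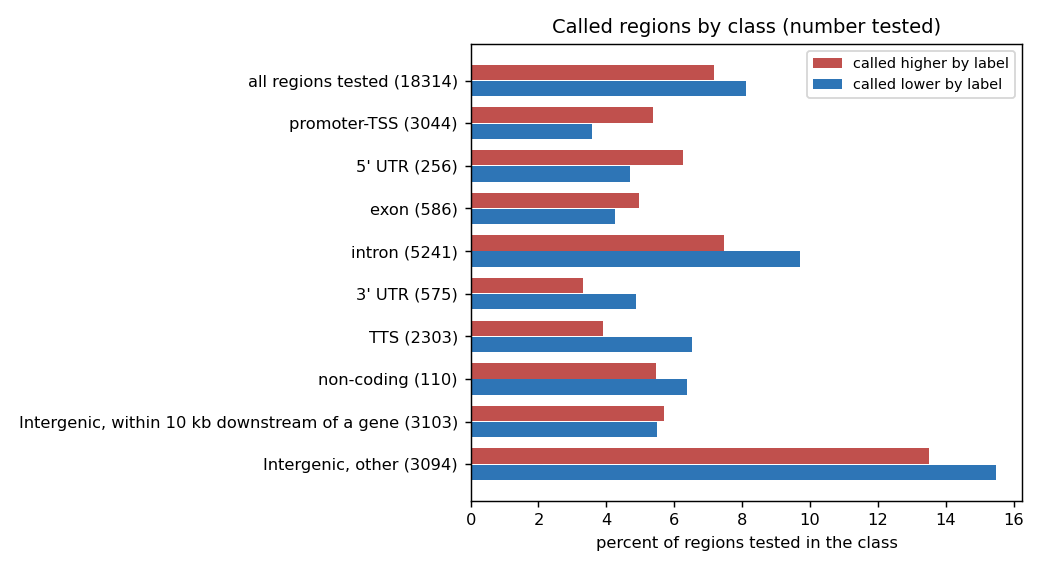
Percent of tested RNAPII-pS2 regions called higher (red) and lower (blue) by label in each HOMER annotation class, with the number tested in brackets. Both bars are longest for intergenic regions away from gene ends and short for promoter and TTS regions.

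At gene ends the largest lower region was that of Cish (chr9:107301957-107303951), with 39.2 and 54.6 against no peak, followed by Ccl24 (chr5:135568029-135569915), with 28.3 and 37.6 against no peak, and Ptgs1 (chr2:36251987-36254107), with 29.7 and 45.5 against no peak and 3.23. The largest higher TTS regions were at Bbc3, a pro-apoptotic BCL2 family gene, with no peak against 12.8 and 25.4, at Stom, with no peak against 12.0 and 17.5, and at Cxcl2, with no peak against 10.7 and 15.7. In the promoter class the largest lower regions were at Nfil3, which encodes a basic leucine zipper factor (29.5 and 35.5 against no peak), at Cbl, a ubiquitin ligase gene (15.1 and 24.4 against no peak), and at Gprc5c (12.8 and 16.5 against no peak). Leprel2 and Mkl2 were among the genes with the largest higher promoter regions. Leprel2 had no peak and 5.77 against 47.4 and 55.9 at chr6:124857549-124858815, 262 bp past the annotated end of Gpr162.

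Intergenic regions carried some of the highest scores among the called regions. On chromosome 3, at chr3:85412705-85413915, the ctrl-labelled libraries scored 102 and 112 and the 1hIL4-labelled libraries no peak and 4.8 (adjusted p = 6.95e-05). Downstream of Lyz2, 26862 bp past its end at chr10:117250090-117250848, scores were 4.78 and 9.64 against 80.0 and 87.4, a log2 change of 3.64 ± 0.296 (SE) by the label (adjusted p = 0.000127). Both regions overlapped a RNAPII-pS5 peak and neither an H3K27Ac peak. Of all intergenic regions away from gene ends 88.3% overlapped a RNAPII-pS5 peak and 60.8% an H3K27Ac peak of the 1 hr experiment, and of TTS regions 59.3% and 12.8%.

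Several lower regions lay on chromosome 16 around Socs1. Within Clec16a, whose annotated span is chr16:10545339-10744878 on the plus strand, 7 regions were tested, each with a peak in both ctrl-labelled libraries and in neither 1hIL4-labelled library, and 5 of them passed. Scores in the ctrl-labelled libraries ran from 4.05 to 16.99 over the 7 regions. Beyond Socs1 a region at chr16:10843361-10845152, nearest to Rmi2, scored 35.3 and 34.7 against no peak (adjusted p = 3.96e-06).

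STAT proteins bind palindromes of the form TTCNNNGAA, and STAT6 also binds the form with a longer spacer, TTCNNNNGAA. These letters, which read the same on both strands, were searched in the middle 300 bases of each region in GRCm38, the assembly of mm10. Some TTCNNNNGAA and TTCNNNGAA matches overlap each other. TTCNNNNGAA was found in 9.02% of all regions tested, in 21.4% of the 1488 lower by label and in 7.09% of the 1311 higher by label. In intergenic regions away from gene ends the shares were 12.1% of all tested, 32.8% of the lower and 6.22% of the higher regions, and in introns they were 10.4%, 22.05% and 6.63%. At TTS regions they were 6.99%, 6.0% and 6.67%, close to each other, while the shares with TTCNNNGAA there were 9.08%, 12.0% and 6.67%. In intergenic regions within 10 kb downstream of a gene the shares with TTCNNNNGAA were 7.96%, 12.9% and 10.2%. TTCNNNGAA was found in 8.91% of all regions, 15.8% of the lower and 7.40% of the higher. At promoter regions the shares with TTCNNNNGAA were 6.93% of all tested, 11.9% of the lower and 5.49% of the higher. In the promoters of the RefSeq table TTCNNNNGAA was found in 6.99% of all 27025, in 5.42% of the 6445 of genes tested, in 7.19% of 320 called lower and in 5.72% of 332 called higher. A match is a stretch of letters and not a measured binding site.

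Of the lower regions, 4 with such letters are shown as examples of the letters in full, 2 in introns of Clec16a, 1 near Rmi2 and 1 far upstream of Klf4. Each is the plus strand of GRCm38, with every TTCNNNGAA or TTCNNNNGAA match in capitals.
Clec16a intron, chr16:10694987-10695286: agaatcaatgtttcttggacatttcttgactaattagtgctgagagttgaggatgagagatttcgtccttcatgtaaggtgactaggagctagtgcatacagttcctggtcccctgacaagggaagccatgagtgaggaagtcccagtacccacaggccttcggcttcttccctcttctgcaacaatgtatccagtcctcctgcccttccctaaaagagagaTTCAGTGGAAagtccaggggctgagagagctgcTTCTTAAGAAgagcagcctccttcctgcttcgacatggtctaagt
Clec16a intron, chr16:10702333-10702632: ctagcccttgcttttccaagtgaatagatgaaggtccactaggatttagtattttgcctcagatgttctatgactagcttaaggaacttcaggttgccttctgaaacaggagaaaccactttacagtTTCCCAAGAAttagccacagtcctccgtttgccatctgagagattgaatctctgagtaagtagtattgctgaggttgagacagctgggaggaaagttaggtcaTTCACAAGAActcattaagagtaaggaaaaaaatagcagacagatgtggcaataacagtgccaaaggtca
Rmi2 intergenic, chr16:10844107-10844406: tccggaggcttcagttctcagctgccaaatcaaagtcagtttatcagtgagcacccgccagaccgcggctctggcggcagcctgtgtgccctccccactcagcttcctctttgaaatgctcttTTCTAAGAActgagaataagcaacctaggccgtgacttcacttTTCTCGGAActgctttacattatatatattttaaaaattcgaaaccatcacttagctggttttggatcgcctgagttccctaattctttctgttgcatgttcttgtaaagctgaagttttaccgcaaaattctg
Klf4 intergenic, chr4:55805338-55805637: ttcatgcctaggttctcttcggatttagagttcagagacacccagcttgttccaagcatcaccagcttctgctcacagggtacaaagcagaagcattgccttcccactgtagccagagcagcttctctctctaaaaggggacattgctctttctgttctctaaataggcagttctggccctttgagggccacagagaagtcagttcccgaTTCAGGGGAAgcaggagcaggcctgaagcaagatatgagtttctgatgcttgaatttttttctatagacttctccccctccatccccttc
Both Clec16a windows hold 2 matches of TTCNNNNGAA, the Rmi2 window holds 2 of TTCNNNGAA and the Klf4 window holds 1 of TTCNNNNGAA. The Clec16a regions scored 12.9 and 11.7, and 6.45 and 6.4, in the ctrl-labelled libraries, the Klf4 region 6.74 and 8.96, and none of the 3 had a peak in the 1hIL4-labelled libraries. Some regions higher by label hold such letters too, among them an intronic region of Abca1 with 1 match of TTCNNNNGAA and the TTS region of Fos with 1 of TTCNNNGAA. As a further example, an intronic region of the integrin gene Itgb3, lower by label, holds 2 matches of TTCNNNNGAA.
Itgb3 intron, chr11:104614204-104614503: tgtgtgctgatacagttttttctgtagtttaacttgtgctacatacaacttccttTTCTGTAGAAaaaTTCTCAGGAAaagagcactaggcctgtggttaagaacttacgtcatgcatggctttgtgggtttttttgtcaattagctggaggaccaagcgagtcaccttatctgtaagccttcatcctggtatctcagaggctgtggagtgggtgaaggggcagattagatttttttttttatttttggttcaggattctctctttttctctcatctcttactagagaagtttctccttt

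Annotation classes took like shares of the peaks in the 4 libraries. Promoter peaks made up 15.7% and 15.4% of the ctrl-labelled and 17.4% and 15.6% of the 1hIL4-labelled lists, TTS peaks 14.7% and 13.2% against 12.1% and 12.5%, introns 27.4% and 29.6% against 27.4% and 28.4%, and intergenic peaks 33.2% and 32.9% against 34.9% and 34.9%. For TTS and intergenic peaks the groups did not overlap, and with 2 libraries against 2 an exact permutation test cannot go below p = 0.33. Of the intergenic peaks 50.3% and 53.2% against 54.4% and 54.5% lay within 10 kb downstream of a protein-coding gene end. Median scores were higher at TTS and promoter peaks, at 9.205 to 10 and 8.755 to 9.685, and were 6 to 6.285 in introns.

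Along genes the RNAPII-pS2 score was concentrated at the start and the end. In genes of 20 kb and longer the first 5% of the length held 28.3% and 30.2% of the score inside the gene in the ctrl-labelled and 31.7% and 28.1% in the 1hIL4-labelled libraries. The last 5% held 13.2% and 12.0% against 11.6% and 11.9%. The groups overlapped at the start and lay close together at the end. Among genes called lower with 1 host gene per region the median log2 change by the label was −1.98 near the start, −1.96 in the middle and −1.83 near the end of the gene, each gene being cut into 3 parts of equal length. Among genes called higher it was 2.0, 1.75 and 1.87. In called genes of 100 kb and longer the medians in the 3 parts were −1.99, −1.96 and −1.63 for those lower and 2.06, 1.97 and 1.86 for those higher, over 29 to 58 genes a part. These values describe genes chosen by the same score and carry no test.

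RNAPII-pS5 and H3K27Ac, an acetylation of histone H3 at active promoters and enhancers, were measured in the same experiment in 4 libraries each. The names of the RNAPII-pS5 peaks gave the same treatment as the labels. In RNAPII-pS5 165 of 11551 genes (1.43%) were called, 0.727% higher and 0.701% lower, and in H3K27Ac 4497 of 10884 (41.3%), 18% higher and 23.3% lower. The RNAPII-pS5 fit used all 12 libraries of the series with that antibody, and the H3K27Ac fit only its 4. The 2 shares called thus come from unlike fits. Of the genes lower by label in RNAPII-pS2 that had a value, 311 of 415 (74.9%) were higher after IL-4 in RNAPII-pS5 and 294 of 375 (78.4%) were higher in H3K27Ac, where 53.8% and 48.7% of all RNAPII-pS2 genes with a value were. Of the genes higher by label 324 of 431 (75.2%) were lower in RNAPII-pS5 and 308 of 389 (79.2%) were lower in H3K27Ac. Read by the sample labels these genes moved in RNAPII-pS2 against RNAPII-pS5, and against H3K27Ac, in the shares given, and read by the peak names they moved with each in the same shares. Calls of RNAPII-pS5 among the lower genes were 24 higher and 2 lower, and among the higher genes 1 higher and 11 lower.

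**Figure D5:**
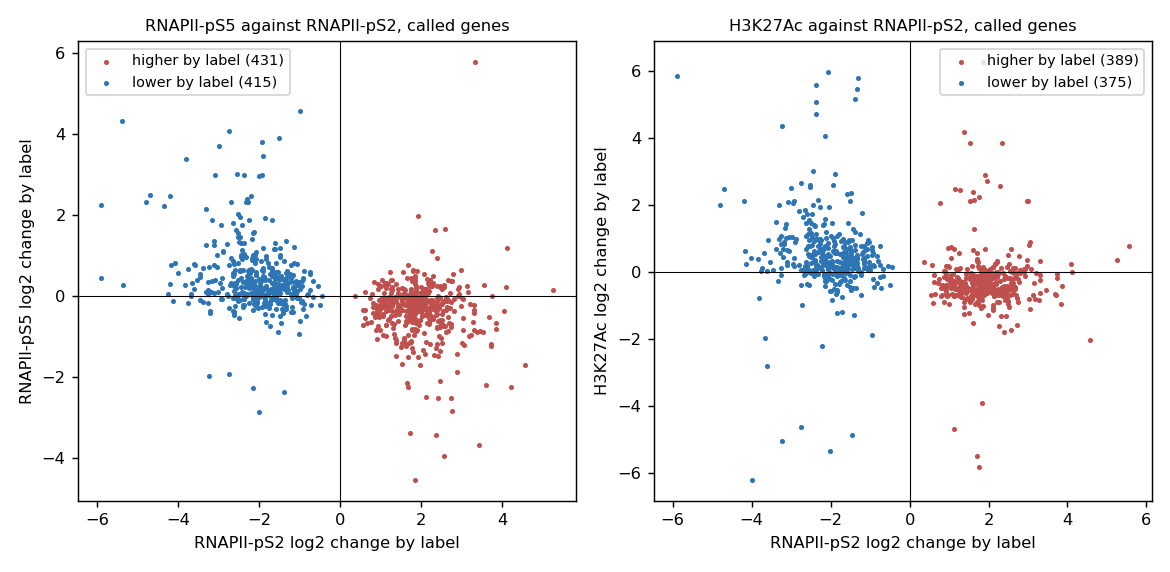
Log2 change by sample label in RNAPII-pS5 (left) and H3K27Ac (right) against that in RNAPII-pS2 for genes called in RNAPII-pS2, 1 point per gene. Most genes lower by label in RNAPII-pS2 (blue) lie above 0 in both other readouts, and most of those higher by label (red) lie below 0.

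Single genes showed both patterns. At Cish RNAPII-pS5 scored 9.79 and 7.28 in the ctrl libraries and 42.8 and 49.2 after IL-4 (log2 change 2.49, adjusted p = 0.012), and H3K27Ac scored 14.1 and 16.9 against 86.4 and 91.6. At Ccl7 RNAPII-pS5 scored 5.88 and no peak against 61.1 and 56.9 (adjusted p = 0.000166). At Clec16a it scored 48.4 and 36.5 against 225 and 183 (log2 change 2.32, adjusted p = 0.0922), and H3K27Ac 140 and 126 against 552 and 550. Pid1 and Lhfpl2, higher by label in RNAPII-pS2, went the other way in H3K27Ac, from 833 and 555 to 165 and 180 for Pid1 and from 629 and 596 to 379 and 398 for Lhfpl2. Ccl24 and St7, both lower by label in RNAPII-pS2, differed little in RNAPII-pS5. Ccl24 scored 20.2 and 18.7 there against 18.3 and 17, and St7 62.9 and 40.1 against 55.6 and 41.6. In H3K27Ac St7 did change, from 489 and 488 to 985 and 983 (log2 change 0.97, adjusted p = 3.1e-05), and Ccl24 had no peak.

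A second experiment of the series measured RNAPII-pS2 after 24 hr of IL-4 alone, against its own controls, in 4 of the 12 libraries of the fit. The other 4 libraries of that experiment were treated with LPS for 1 hr, with or without IL-4 before it. Of the genes lower by label at 1 hr 377 had a value at 24 hr, with a median log2 change of 0.05, and of the genes higher by label 399 had one, with a median of 0.04. The median over all tested genes with a value was −0.02. Clec16a had a log2 change of 2.36 at 24 hr (adjusted p = 0.0019) and Irf4 one of 1.42 (adjusted p = 0.0888). Ccl24 had a change of −1.64 as a gene (adjusted p = 0.0872), while its TTS region was at 0.46 and did not pass (adjusted p = 0.359). Ptgs1 was at −1.31 and did not pass (adjusted p = 0.145).

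The genes with the highest RNAPII-pS2 scores differed little. Tex14 had 315 and 417 in the ctrl-labelled and 283 and 383 in the 1hIL4-labelled libraries (−0.06 ± 0.078, adjusted p = 0.772), and D5Ertd579e had 232 and 285 against 273 and 288 (0.21 ± 0.153, adjusted p = 0.537). Dock2, an activator of the GTPase RAC in leukocytes, scored 194 and 227 against 240 and 270 and was called with a small change (0.36 ± 0.115, adjusted p = 0.0875) that did not hold with 1 host gene per region (adjusted p = 0.215) and was −0.013 with quantile-normalised ranks. Rgl2 and the histone gene Hist1h2be were at 0.04 ± 0.146 and 0.18 ± 0.203 and did not pass.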

How the data were processed

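RNAPII-pS2 was profiled by ChIP-seq in 2 ctrl and 2 1hIL4 libraries, grouped by sample label. Per the submitters' processing notes the tools were BWA 0.7.10, SAMtools 0.1.19, HOMER 4.2 and MACS2 2.0.10 on mm10. The RNAPII-pS2 and RNAPII-pS5 peak lists were deposited by the authors with a −log10 p or q value per peak, and the H3K27Ac lists were deposited with normalized tag signal per region of 1 width. Depth is unknown in these lists, so the number of peaks is given instead.

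The scores of all peaks within a host gene were summed, set on a log2 scale, centred on the median of shared genes and tested with limma 3.58.1 in R 4.3.3 (trend and robust options, all 12 RNAPII-pS2 libraries), for genes where 2 or more of these 4 libraries had a peak. In the 4 libraries compared a missing peak took 1.39, the lowest score over all 12 libraries, and in the other 8 it was left missing. The lowest scores of the 4 libraries themselves were between 1.76 and 1.89. Calls were made at a Benjamini-Hochberg adjusted p of at most 0.1. Regions are peaks merged where they overlap, with the highest score of each library. Positions and sequences came from GENCODE and RefSeq on GRCm38, the assembly of mm10.

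Named genes were the 10 with the largest change in each direction, up to 4 of smallest p in each list and in clusters A, B, C and E, and the 5 of highest mean score. The 3 largest TTS and promoter regions in each direction were also named, and other genes and regions were chosen after their values were seen. Members and gene lists were chosen with earlier results of these data known. The fit with 1 host gene per region, the fit without promoter peaks and the test of the 1 hr against the 24 hr effect were added after seeing the data. The other alternatives were the samples in the fit, the filter, the floor, the centring, the peak threshold, the gene of a peak, the replicate block and leaving out each library. The fit was tested on simulated data. A few genes that the rule names are not reported here.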

Additional observations from a re-analysis of the deposited data

Results flagged for a closer look

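The 1 hr and the 24 hr IL-4 effects on RNAPII-pS2, each against its own controls, were compared within 1 limma fit at an adjusted p of at most 0.1. Of 6869 genes the effects differed in 697 when the 1 hr libraries were read by the label and in 610 when they were read by the peak names. In the 1 hr libraries a missing peak took the lowest score over all 12 libraries, but in those of the 24 hr effect it was left missing. For genes without a peak in 1 group at 1 hr, a difference under both readings thus depends on that score. Many of the genes were also named for a large or significant change at 1 hr. Time and experiment changed together and cannot be told apart. Among the named genes reported here the following differed under both readings, and their log2 changes at 24 hr are given.

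Of the genes higher by label at 1 hr, the 24 hr change was 1.33 for Nat10, 0.43 for Pid1, −1.09 for Aoah, 0.41 for Lrrc40, −0.95 for Ptplad2, −0.78 for Clec4d, 0.24 for Sgk1, 0.10 for Ctsb, −0.033 for Abca1 and 0.53 for Lhfpl2. Of the genes lower by label at 1 hr, it was 1.26 for Ccl7, 2.36 for Clec16a, −0.34 for Cish, −1.31 for Ptgs1, −0.77 for Socs3, 0.71 for St7, 0.52 for Itgb3, −0.038 for Cd40, 1.15 for Tes, 0.51 for Auh, 0.10 for Lpxn and 0.025 for Ust. Tex14, at 0.68, and Rpl13, at 2.08, were also in this set. Nat10 and Ctsb are among the genes whose 1 hr call was lost with 1 host gene per region. With 2 libraries a group, no library could be tested as an outlier.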

How the results depend on the processing

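The numbers of genes called higher and lower by label (452 and 432) were 98 and 110 with only the 4 libraries in the fit, 1181 and 1141 at an unadjusted p, 162 and 156 with a peak required in all 4, and 212 and 226 with a floor 4 times as high. Leaving out 1 library gave 223 to 600 higher and 166 to 613 lower. The fewest higher calls, 223 and 254, came without 1hIL4 replicate 1 or 2, and the fewest lower calls, 166 and 242, came without ctrl replicate 1 or 2. The regions called higher and lower (1311 and 1488) were 547 and 620 with only the 4 libraries, 281 and 263 with a peak in all 4, and 294 and 339 with the higher floor. Leaving out 1 library gave 390 to 1234 higher and 279 to 1478 lower regions, with 390 and 402 higher without 1hIL4 replicate 1 or 2 and 279 and 382 lower without ctrl replicate 1 or 2.

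Replicate numbers did not pair the libraries, as deviations of same-numbered libraries correlated at 0.0102 over genes and 0.012 over regions. With the replicate block 483 genes were higher and 449 lower, and 1575 regions were higher and 1834 lower. In the upper 50% of peaks the difference in class share, 1hIL4 minus ctrl in percentage points, was −0.175 for 5′ UTR, 0.054 for exons, 1.02 for intergenic and 0.027 for non-coding peaks. With the gene of the nearest start site the log2 change turned to −0.15 for Ggn, −1.20 for Tmem179b, 0.40 for Apex1 and −0.0074 for Ctsb. It turned to −0.14 for Cpsf4 with the higher floor and to −0.013 for Dock2 with ranks. The cause was not tested. Of 73 named genes 53 were called, and 24 kept the call under every alternative that gave them a value. Many alternatives gave none for some genes.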
